A study of Homo sapiens with 6 samples.

Results

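Long intergenic noncoding RNAs carry the systematic symbols LINC followed by a number. The 35 rows described here were every row of the deposited expression table with such a symbol, or with a symbol ending in -AS and a number, whose FPKM averaged 0.5 or more over the 6 libraries. FPKM is a level scaled for gene length and for library size. The rows were thus selected on their level over all 6 libraries, control, IAA and washout alike, and that level is not itself a finding. The table held 31628 rows, 553 of them with a LINC symbol. Of these 553, 306 were at 0 in every library, 212 lay above 0 but under the threshold, and 35 passed it. The number of rows with a symbol ending in -AS and a number was 0, so antisense RNAs named after a partner gene were not analysed here.

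The cells were HCT116, a human colon cancer line, in which ENL is fused to an auxin-inducible degron (AID). They also stably express AtAFB2, the plant protein through which auxin marks a degron for destruction. ENL, the product of MLLT1, is a chromatin protein that reads acetylated histones and belongs to complexes that help RNA polymerase II elongate. All 6 libraries carry the tagged ENL and AtAFB2, and 2 replicates each came from control cells, from cells given the auxin IAA for 3 h at a dose written as 500 um, and from cells given IAA, washed with PBS and kept for 48 h in normal medium. The AID cells were selected as clones with puromycin and blasticidin, but the labels do not say if these cells are 1 clone or several. No group received IAA without a degron on ENL, so an effect of IAA itself and an effect of losing ENL cannot be told apart. The washout cells also differ from the control cells in 48 h of further culture.

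Most long noncoding RNAs are made by RNA polymerase II, capped, spliced and polyadenylated like messenger RNAs, but are not known to encode a long protein. Many are expressed at low levels and in few tissues, and some act in the nucleus near the gene that makes them while others act as scaffolds or decoys in the cytoplasm. Poly(A) selection, used here, recovers only those with a poly(A) tail. The LINC symbols are placeholders given before a function is known, and some such transcripts were later found to encode small proteins and were renamed.

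The label was checked against a later annotation, GENCODE 29, which contained all 35 identifiers. It types 18 as lincRNA, 4 as processed transcripts, 4 as antisense (LINC00659, LINC00852, LINC00449 and LINC01063), 2 as transcribed pseudogenes, 1 as sense-overlapping and 1 as a transcript of a bidirectional promoter. The other 5 are typed as protein coding, so the symbol in the table and the present annotation differ for them. These are LINC00998 (now SMIM30), LINC00493 (SMIM26), LINC00984 (INAFM2), LINC00094 (BRD3OS) and LINC00086 (SMIM10L2A). In all, 10 of the 35 have another symbol in a separate list of current gene names. Among them are LINC00657 (NORAD), LINC00338 (SNHG20), LINC00263 (OLMALINC) and LINC00346 (PRECSIT).

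Library totals ran from 16440000 to 16770000 reads. MLLT1 had 0.413 and 0.427 FPKM in the control libraries, 0.404 and 0.358 FPKM in the IAA libraries, and 0.414 and 0.384 FPKM in the washout libraries. The degron removes protein, which RNA does not measure. The epithelial markers KRT18 and KRT19 averaged 156 and 122 FPKM, while CDH17 was near 0 (0.00133 FPKM). Summed over 6 epithelial markers, the level was 334 to 344 FPKM in control, 265 to 269 with IAA and 321 to 337 after washout, and what part this has in the results was not tested. All 5 fibroblast, 3 endothelial and 5 blood markers matched averaged under 1 FPKM, the highest being COL1A1 at 0.642. In bulk RNA, fewer cells with a transcript and less of it per cell cannot be told apart.

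LINC00657, or NORAD, was by far the most abundant of the 35. NORAD is a cytoplasmic RNA that binds Pumilio proteins and is needed for stable chromosome number. It had 119 and 119 FPKM in the control libraries, 112 and 109 FPKM in the IAA libraries, and 124 and 120.4 FPKM in the washout libraries. Its mean of 117 FPKM was 6.1 times that of the next transcript and 56.9% of the FPKM summed over all 35. The promoter sequences shown here are those of the most abundant transcript and of transcripts that changed with IAA. They come from RefSeq on GRCh38.p14, run from 250 bases before to 50 bases after the annotated start, and are written along the transcribed strand, 5′ to 3′. The window of LINC00657 is chr20:36050911-36051210 on the minus strand. Its capitals mark the E-box CACGTG, the sequence bound by MYC and related factors.
LINC00657: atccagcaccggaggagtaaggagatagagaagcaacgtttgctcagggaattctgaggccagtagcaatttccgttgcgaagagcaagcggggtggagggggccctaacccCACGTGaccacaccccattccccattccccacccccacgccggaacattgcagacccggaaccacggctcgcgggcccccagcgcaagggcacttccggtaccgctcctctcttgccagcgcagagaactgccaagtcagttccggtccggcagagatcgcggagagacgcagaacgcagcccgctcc

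The E-box was looked for in all windows of this length. CACGTG, searched on both strands (it is its own reverse complement), was found in 7.23% of 34941 RefSeq promoter windows and in 3 of the 31 windows matched here, those of LINC00657, LINC00493 and LINC01063. The core of the aryl hydrocarbon receptor element, TNGCGTG, also searched on both strands, was in 5.50% of all windows and in 1 of the 31, that of LINC00449. LINC00449 had 1.04 and 1.17 FPKM in the control libraries, 1.15 and 0.720 FPKM in the IAA libraries, and 1.26 and 0.725 FPKM in the washout libraries, and its groups overlapped. None of the windows of the 6 changed transcripts that were matched held either motif. Such a match describes letters in 1 window and says nothing of binding.

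The next most abundant transcripts are 2 that encode small membrane proteins. LINC00998 (SMIM30) had 20.3 and 19.8 FPKM in the control libraries, 18.5 and 18.9 FPKM in the IAA libraries, and 18.9 and 18.6 FPKM in the washout libraries. LINC00493 (SMIM26) had 12.6 and 13.7 FPKM in the control libraries, 16.1 and 15.4 FPKM in the IAA libraries, and 14.96 and 13.8 FPKM in the washout libraries. For LINC00493 both IAA libraries were above all 4 others, with a limma log2 change of 0.25 against control and an adjusted p of 0.0821, which does not pass. The groups of LINC00998 did not overlap either, the IAA libraries being below control (log2 -0.098, limma adjusted p = 0.163), and the washout libraries were as low as those with IAA.

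Behind these came LINC00641 (5.11 mean FPKM), LINC00659 (5.10), LINC00984 (3.94), LINC00094 (3.48), LINC00973 (2.52), LINC00938 (2.37) and LINC00205 (2.14). By these FPKM LINC00641 and LINC00659 cannot be ordered, since LINC00659 ranged from 3.68 to 5.71 FPKM over the 6 libraries and LINC00641 from 3.64 to 7.85. Of the 35, 27 averaged 1 FPKM or more and 5 averaged 5 or more. Just inside the threshold lay LINC00086 (0.519 FPKM), LINC01063 (0.550) and LINC00346 (0.598), and just outside it LINC00537 (0.490), LINC00337 (0.466) and LINC00341 (0.454).

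The reads behind these levels differ widely, and the deposited FPKM divide by the length of the gene with its introns. When recovered reads were scaled in the same way but by exon length, LINC00657, which has 1 exon, stayed at 117. LINC00941, at 2.01 FPKM, had 11.4 on that exon scale, and LINC00839, at 1.14 FPKM, had 9.64. The recovered reads of LINC00941 imply a length of 7669 bases, where its GENCODE 29 span is 47436. Its exon length, also from GENCODE 29, may not match the gene model counted, so its 11.4 is uncertain. LINC00659 and LINC00641, close in mean FPKM, had 12.1 and 6.10 on the exon scale. LINC00963 had only 1.44 FPKM but 724 mean reads, the second most of the 35, over a span of 30236 bases. At the other end LINC01023, with a span of 436 bases, had 2 and 4 reads (control), 7 and 5 reads (IAA), and 8 and 8 reads (washout). LINC00346 had 4 and 11 reads (control), 2 and 3 reads (IAA), and 6 and 9 reads (washout), and these 2 were the members that averaged under 10 reads.

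**Figure D1:**
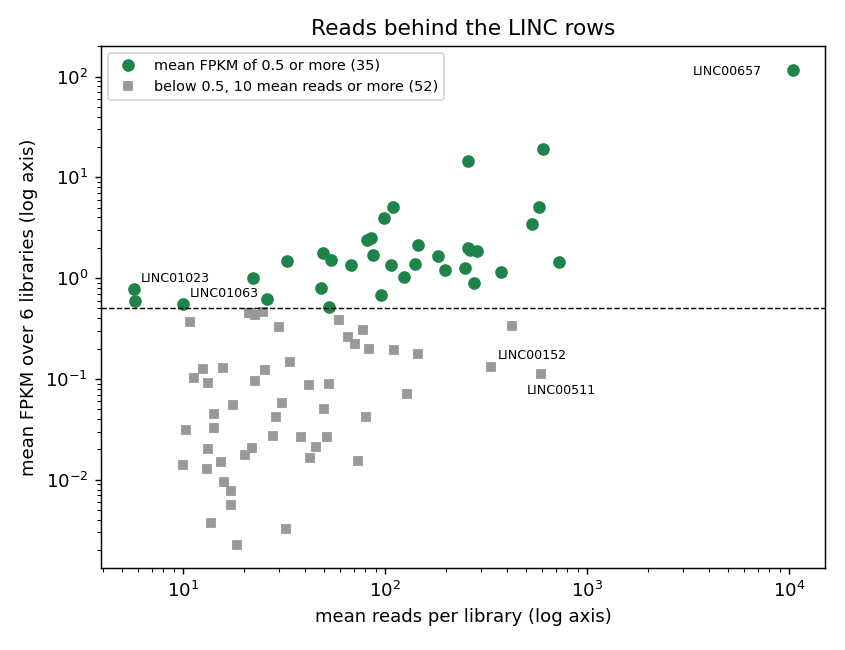
Mean reads per library (x, log axis) against mean FPKM over 6 libraries (y, log axis) for the 35 LINC rows at 0.5 FPKM or more (green circles) and the 52 LINC rows below 0.5 FPKM with 10 mean reads or more (grey squares). The dashed line is the threshold of 0.5 FPKM, and LINC00511 lies below it with 594 mean reads while LINC01023 lies above it with 5.67.

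The first comparison, of IAA with control, addresses which of these RNAs change within 3 h of giving IAA. Of the 35, 4 fell (LINC00896, LINC00638, LINC00973 and LINC00963), 2 rose (LINC00641 and LINC00852) and 29 did not pass limma's test at an adjusted p under 0.05. Among all 10561 genes tested 11.6% passed, 5.99% higher and 5.56% lower, against 5.71% higher and 11.4% lower among the 35. The share that rose is near the background, and the share that fell rests on 4 transcripts and was not tested against it. The 4 include LINC00638, which passed the threshold on level through its control and washout libraries, so its call is no independent support. Leaving out either control library or either IAA library left 0 of the 6 calls, and leaving out either washout library left 1, that of LINC00963. The median log2 change of the 35 was -0.066, beside 0.019 over all genes tested, and 22 of the 35 were below 0. When the levels were rescaled to TPM or by median-of-ratios size factors, 40.8% and 40.6% of the genes called were higher, against 51.9% as deposited. The 6 transcripts called kept their direction and their call under both.

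LINC00963, a multi-exon RNA first described in prostate cancer cells, had 1.47 and 1.55 FPKM in the control libraries, 1.08 and 1.06 FPKM in the IAA libraries, and 1.72 and 1.74 FPKM in the washout libraries. The IAA libraries were the lowest and lay close together, and the washout libraries were the highest. The mean fell from 1.51 ± 0.0519 to 1.07 ± 0.0150 FPKM (SD over n = 2), 0.708 of the control level (limma log2 change -0.36, SE 0.0376, adjusted p = 0.0158). With 724 mean reads it had the most reads of the changed transcripts. Its call held in all 9 other settings that kept all libraries of the groups compared, and its log2 change was -0.38 to -0.33 without 1 library, with adjusted p of 0.0486 to 0.0915.

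LINC00896 is a single-exon RNA of 2128 bases with no function that is well established. It had 1.73 and 2.16 FPKM in the control libraries, 0.686 and 0.841 FPKM in the IAA libraries, and 1.88 and 1.89 FPKM in the washout libraries. Both IAA libraries were below 1 FPKM and all 4 others above 1.7. LINC00896 fell from 1.94 ± 0.306 to 0.763 ± 0.109 FPKM (n = 2), 0.393 of control (limma log2 change -0.95, SE 0.108, adjusted p = 0.0171). Behind it were 61 and 77 reads (control), 24 and 30 reads (IAA), and 67 and 67 reads (washout). The log2 change was -1.08 to -0.82 without 1 library, with adjusted p of 0.0529 to 0.0877.

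LINC00638, another single-exon RNA, had 0.646 and 0.971 FPKM in the control libraries, 0.242 and 0.284 FPKM in the IAA libraries, and 0.832 and 0.763 FPKM in the washout libraries. Its IAA libraries lay apart from the others, and its control libraries differed from each other more than its washout libraries did. It fell to 0.325 of the control level (limma log2 change -0.77, adjusted p = 0.0344). That is the largest drop by ratio among the 4, on 27 and 41 reads (control), 10 and 12 reads (IAA), and 35 and 32 reads (washout). The log2 change was -0.95 to -0.59 without 1 library, with adjusted p of 0.0564 to 0.149. Since LINC00638 averaged 0.623 FPKM and was at 0.263 FPKM with IAA, it passed the threshold through the control and washout libraries. In all, 5 of the 35 had a group mean under 0.5 FPKM, and a transcript that passes the threshold through its high groups had to differ. The RefSeq promoter of LINC00638 is chr14:104820951-104821250 on the plus strand and holds neither motif, so it has no capitals.
LINC00638: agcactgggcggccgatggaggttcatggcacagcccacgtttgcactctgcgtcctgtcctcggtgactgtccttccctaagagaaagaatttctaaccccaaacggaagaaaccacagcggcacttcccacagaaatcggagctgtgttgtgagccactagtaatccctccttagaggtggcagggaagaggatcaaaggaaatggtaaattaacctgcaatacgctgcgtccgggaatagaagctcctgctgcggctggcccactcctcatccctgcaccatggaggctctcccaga

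LINC00973, a 2-exon RNA reported as induced by chemotherapy drugs in colon cancer cells, had 2.54 and 3.36 FPKM in the control libraries, 1.61 and 1.52 FPKM in the IAA libraries, and 3.23 and 2.86 FPKM in the washout libraries. The IAA libraries were the 2 lowest, and the washout libraries lay within the range of the control libraries. It fell from 2.95 ± 0.584 to 1.57 ± 0.0636 FPKM (n = 2, limma log2 change -0.73, SE 0.130, adjusted p = 0.0371). Its log2 change was -0.90 to -0.56 without 1 library, with adjusted p of 0.0703 to 0.148. Its promoter, chr3:98980805-98981104 on the plus strand, is AT-rich (37.3% G and C) and holds neither motif.
LINC00973: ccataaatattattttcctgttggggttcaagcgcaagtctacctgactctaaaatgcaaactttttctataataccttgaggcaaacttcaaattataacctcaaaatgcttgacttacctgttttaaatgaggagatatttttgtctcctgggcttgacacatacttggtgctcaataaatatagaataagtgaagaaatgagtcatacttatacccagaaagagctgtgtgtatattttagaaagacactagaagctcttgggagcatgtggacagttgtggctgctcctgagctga

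The promoters of the 4 transcripts that fell differ in base composition, as far as they were matched. That of LINC00963 is 78.0% G and C, that of LINC00638 55.0% and that of LINC00973 37.3%, and none was matched for LINC00896. The RefSeq start of LINC00963 lies 5209 bases from the start of the gene in GENCODE 29.

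LINC00641 showed the larger of the 2 rises. It lies beside HNRNPC, on the same strand. It had 4.47 and 4.19 FPKM in the control libraries, 7.85 and 6.77 FPKM in the IAA libraries, and 3.74 and 3.64 FPKM in the washout libraries. Both IAA libraries were above all others, and the washout libraries were the 2 lowest. LINC00641 rose from 4.33 ± 0.202 to 7.31 ± 0.770 FPKM (n = 2), 1.69-fold (limma log2 change 0.69, SE 0.0795, adjusted p = 0.0174). The reads behind it were 507 and 479 reads (control), 881 and 774 reads (IAA), and 426 and 413 reads (washout), and its log2 change was 0.59 to 0.79 without 1 library, with adjusted p of 0.0530 to 0.103. Its promoter is chr14:21206851-21207150 on the minus strand, has 39.0% G and C, holds neither motif and is shown as that of the largest rise.
LINC00641: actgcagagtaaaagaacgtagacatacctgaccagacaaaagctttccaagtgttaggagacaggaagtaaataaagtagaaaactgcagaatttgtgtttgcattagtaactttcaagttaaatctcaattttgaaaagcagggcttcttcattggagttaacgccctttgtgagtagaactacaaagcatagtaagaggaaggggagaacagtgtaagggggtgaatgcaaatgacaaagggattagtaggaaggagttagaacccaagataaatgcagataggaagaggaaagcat

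LINC00852, a single-exon RNA annotated antisense and carrying the RefSeq synonym GHRL-AS2, had 1.27 and 1.03 FPKM in the control libraries, 1.83 and 1.93 FPKM in the IAA libraries, and 1.53 and 1.31 FPKM in the washout libraries. The 3 groups did not overlap, with control lowest and IAA highest. It rose 1.63-fold (limma log2 change 0.53, SE 0.0950, adjusted p = 0.0376), on 28 and 23 reads (control), 40 and 43 reads (IAA), and 34 and 29 reads (washout). In a fit to the recovered reads with voom, which weights by depth, the change did not pass (adjusted p = 0.138). By limma it was 0.43 to 0.63 without 1 library, with adjusted p of 0.0658 to 0.151. GHRL, the gene of the hormone ghrelin, had 29 and 16 reads (control), 24 and 12 reads (IAA), and 31 and 29 reads (washout), with overlapping groups (voom adjusted p = 0.646). Without the strand, reads of GHRL and of an antisense RNA over it cannot be told apart.

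LINC00909 now has the symbol ZNF407-AS1. It had 1.62 and 1.54 FPKM in the control libraries, 1.52 and 1.85 FPKM in the IAA libraries, and 1.58 and 1.73 FPKM in the washout libraries. Its groups overlapped (limma log2 change 0.067, adjusted p = 0.658). ZNF407, a zinc finger gene, had 385 and 430 reads (control), 425 and 358 reads (IAA), and 318 and 362 reads (washout) (voom log2 change -0.055, adjusted p = 0.774). Neither passed the test. The pair with GHRL was taken from a RefSeq synonym and that with ZNF407 from a later name. Both pairs were chosen after the values were seen.

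**Figure D2:**
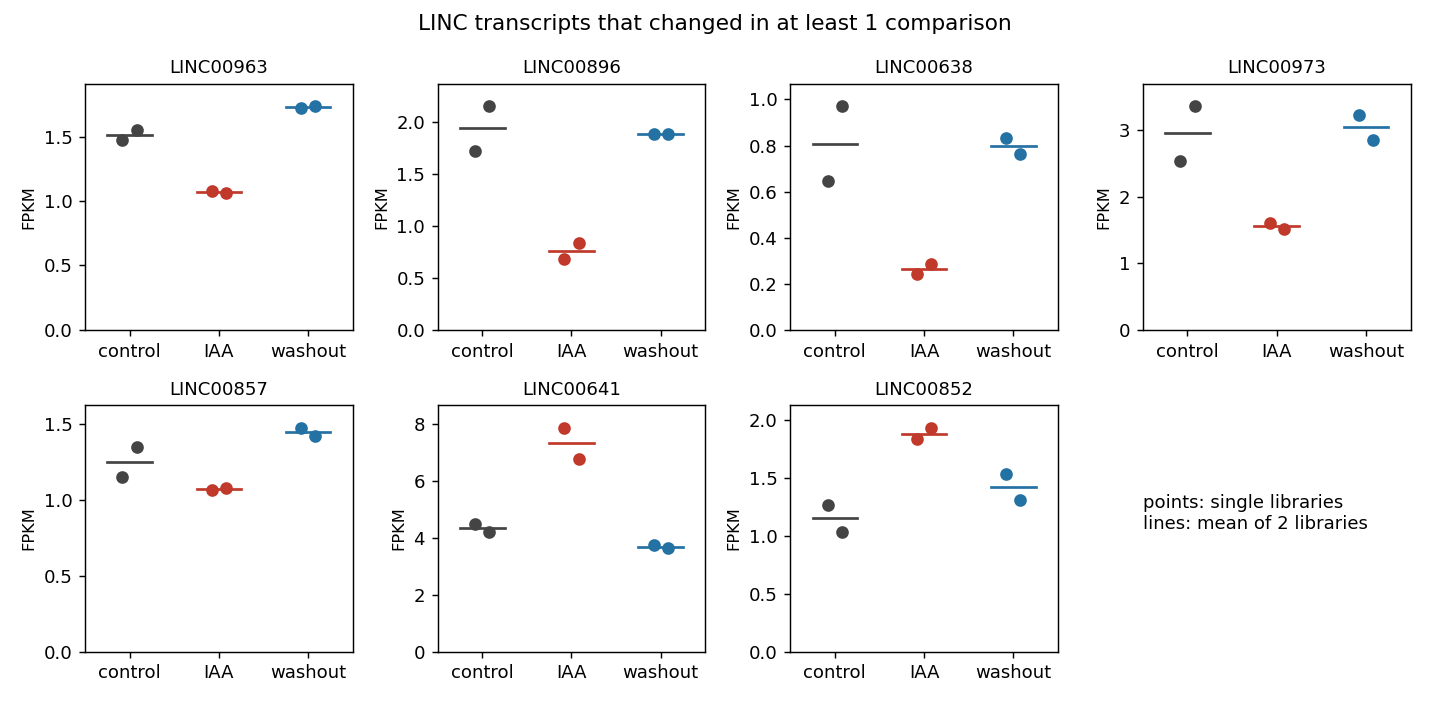
FPKM (y, from 0) of the 7 LINC transcripts that passed limma's test in at least 1 comparison, in control, IAA and washout (x). Points are single libraries and lines are means of 2. LINC00963, LINC00896, LINC00638, LINC00973 and LINC00857 are lowest with IAA, and LINC00641 and LINC00852 are highest.

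Some transcripts that did not pass had changes as large as those of some that did. The 29 not called ranged in log2 change from -0.69 (LINC00346) to 0.55 (LINC01023), both with few reads, and 23 of them had a ratio within 1.3-fold of 1 in either direction. LINC00984 (INAFM2) had 3.93 and 4.93 FPKM in the control libraries, 2.23 and 3.50 FPKM in the IAA libraries, and 4.11 and 4.97 FPKM in the washout libraries, and its log2 change of -0.57 had a limma adjusted p of 0.174. LINC00326 had 0.849 and 1.21 FPKM in the control libraries, 0.612 and 0.712 FPKM in the IAA libraries, and 0.896 and 1.08 FPKM in the washout libraries (log2 -0.39, limma adjusted p = 0.149). LINC00941, an RNA raised in several carcinomas, had 2.68 and 1.91 FPKM in the control libraries, 1.70 and 1.67 FPKM in the IAA libraries, and 2.08 and 2.01 FPKM in the washout libraries (log2 -0.34, limma adjusted p = 0.183). All 3 had both IAA libraries below both control libraries. Such separation was common. Among the 35, 14 had IAA wholly below control and 6 wholly above, 40.0% and 17.1%, where 27.1% and 33.8% of all genes tested did.

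Reads recovered from the FPKM allowed a second test, in which voom called 24.7% of 14770 genes. It tested 33 of the 35 transcripts, leaving out LINC01023 and LINC00346. It called 1 higher (LINC00641, log2 0.75, voom adjusted p = 1.148e-09) and 8 lower. The 8 were the 4 that limma called together with LINC00984 (voom adjusted p = 0.0328), LINC00326 (0.00101), LINC00941 (0.0217) and LINC00657 (0.0133). The change of LINC00657 was small, 0.929 of the control level, and limma gave it an adjusted p of 0.125. By voom 14.3% of all genes were higher and 10.4% lower. Those 14770 genes include some under 0.5 FPKM, unlike the 33. Of the 10003 at 0.5 FPKM or more, voom called 1508 higher and 1287 lower.

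The width of the intervals differed between transcripts and between tests. Limma's 95% interval of the log2 change ran from -0.12 to 0.12 for LINC00339, an RNA transcribed beside CDC42, and from -0.16 to 0.13 for LINC00431. Limma's SE for LINC00339 and LINC00431, on log2(FPKM + 0.5), was 0.0450 and 0.0565, and that of voom on their reads was 0.177 and 0.186, so by voom these changes are bounded less closely. At the other extreme, LINC01063 had 0.111 and 0.930 FPKM in the control libraries, 0.446 and 0.547 FPKM in the IAA libraries, and 0.494 and 0.772 FPKM in the washout libraries, and its interval of -1.03 to 1.22 leaves its direction unknown. LINC00847 and LINC00659 each had an IAA or washout library far from its replicate. LINC00847 had 1.12 and 1.48 FPKM in the control libraries, 1.07 and 1.79 FPKM in the IAA libraries, and 1.204 and 1.42 FPKM in the washout libraries, and LINC00659 had 5.67 and 5.20 FPKM in the control libraries, 4.92 and 5.71 FPKM in the IAA libraries, and 3.68 and 5.42 FPKM in the washout libraries.

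**Figure D3:**
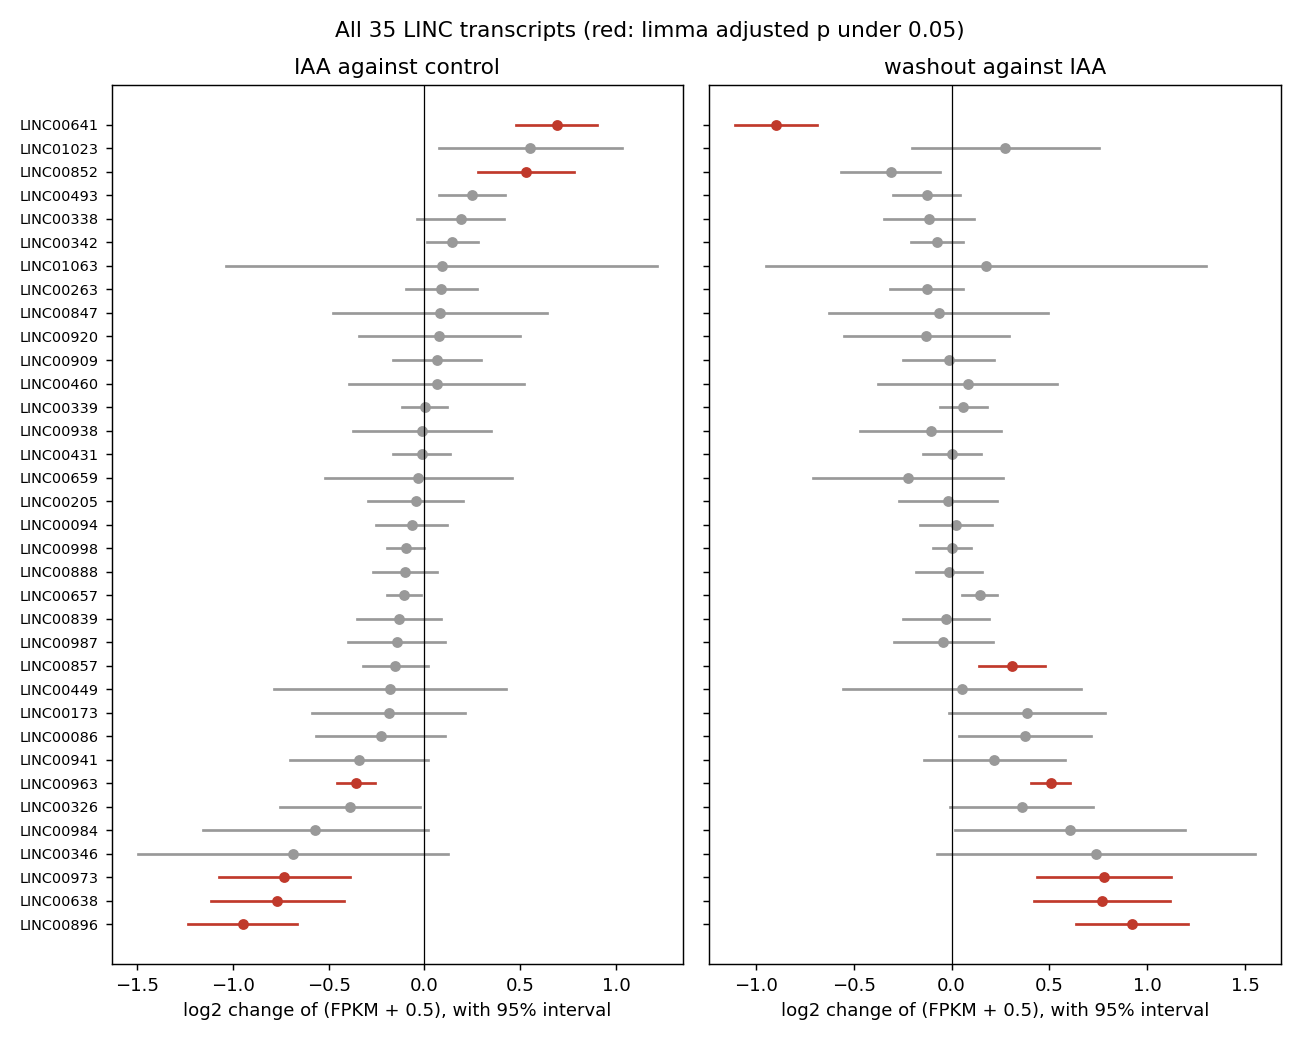
Log2 change of (FPKM + 0.5) with its 95% interval (x) for each of the 35 LINC transcripts (y, ordered by the change with IAA), IAA against control on the left and washout against IAA on the right. Red marks an adjusted p under 0.05 by limma. The IAA libraries enter both panels, so opposite signs in the 2 panels are partly built in.

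Washout was then compared with IAA, which addresses what changes after IAA is removed. Of the 35, 5 rose, 1 fell and 29 did not pass. Among all genes tested 12.4% passed, 6.48% higher and 5.96% lower, against 14.3% and 2.86% of the 35. The IAA libraries are shared with the comparison before, so a transcript low in them tends to appear in both. LINC00963 rose 1.62-fold to 1.73 ± 0.0118 FPKM (n = 2, limma log2 change 0.51, SE 0.0376, adjusted p = 0.00928). LINC00896 rose 2.47-fold (limma log2 change 0.92, adjusted p = 0.0182), LINC00973 1.94-fold (adjusted p = 0.0322) and LINC00638 3.03-fold (adjusted p = 0.0342). LINC00638 passed the threshold through its control and washout libraries, so its call, counted in the 14.3%, is no independent support. Wholly above the IAA libraries were 14 of the 35 (30.1% of all genes tested) and wholly below them 6 (31.3%). LINC00641 fell to 0.504 of its IAA level (limma log2 change -0.90, SE 0.0795, adjusted p = 0.0123). Without either control library 4 rose and 1 fell, and in the 4 fits without 1 IAA or 1 washout library 0 rose and LINC00641 fell only in that without the second IAA library. Over the 6 fits without 1 library the limma adjusted p reached 0.0701 for LINC00963, 0.0977 for LINC00896, 0.132 for LINC00973, 0.144 for LINC00638 and 0.0791 for LINC00641. As TPM 65.2%, and by median-of-ratios 59.1%, of all genes called in this comparison were higher, against 52.1% as deposited.

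The fifth to rise was LINC00857, an RNA studied in lung and other carcinomas. It had 1.15 and 1.34 FPKM in the control libraries, 1.06 and 1.07 FPKM in the IAA libraries, and 1.47 and 1.42 FPKM in the washout libraries. The IAA libraries were lowest, but only the washout libraries differed from them past the threshold (1.35-fold, limma log2 change 0.31, SE 0.0642, adjusted p = 0.0482). This change was 0.29 to 0.33 without 1 library, with adjusted p of 0.0545 to 0.173. With IAA against control its log2 change was -0.15 (adjusted p = 0.198). LINC00852, called higher with IAA, was at 0.756 of its IAA level after washout (limma adjusted p = 0.104), which does not pass. Voom called the same 5 higher and also LINC00326, LINC00984 and LINC00657, and LINC00641 lower, where 11.9% and 14.2% of all genes were higher and lower. Of the 10003 genes at 0.5 FPKM or more that voom tested, 1462 were higher and 1521 lower.

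Against control, the washout libraries showed no called change in any of the 35. Limma called 0 of them, and 1 of the 10561 genes (0.00947%). At an unadjusted limma p under 0.05 there were 2 of the 35, beside 940 of the 10561 genes. Voom also called 0 of 33 (0.833% of all genes, 0.393% higher and 0.44% lower). The lowest adjusted p by limma was 0.524. The ratio of washout to control lay within 1.3-fold of 1 for 34 of the 35. LINC01023, the exception, was at 2.67 times control on 2 to 8 reads per library. The log2 change of washout against control was 0.15 for LINC00963 (95% interval 0.049 to 0.25, limma adjusted p = 0.539), -0.027 for LINC00896 (-0.31 to 0.26) and 0.046 for LINC00973 (-0.30 to 0.39). For LINC00641 it was -0.21 (-0.42 to 0.0033). An adjusted p over the threshold does not show that the levels were the same.

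Genes beside these transcripts were looked up in GENCODE 29, a choice made after the data were seen. Of the 35, 11 had 1 tested gene each within 5 kb, and 4 of these pairs overlapped. HNRNPC, an RNA-binding protein gene beside LINC00641, had 4.97 and 5.17 FPKM in the control libraries, 4.80 and 5.05 FPKM in the IAA libraries, and 4.65 and 4.76 FPKM in the washout libraries. Its log2 change with IAA was -0.038 (limma adjusted p = 0.614), beside 0.69 for LINC00641. TATDN2, beside LINC00852, had a log2 change of -0.059 (adjusted p = 0.520). ANXA11, an annexin gene beside LINC00857, had 0.15 in washout against IAA (limma adjusted p = 0.0711), which limma did not call and voom called higher (log2 0.18, adjusted p = 0.00622). With IAA, neither limma nor voom called HNRNPC or TATDN2.

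At LINC00984 limma called the neighbour and not the LINC transcript, while voom called both. C15orf52, on the opposite strand within 5 kb, had 3.66 and 3.67 FPKM in the control libraries, 1.89 and 2.38 FPKM in the IAA libraries, and 3.59 and 3.45 FPKM in the washout libraries. C15orf52 fell with IAA (limma log2 change -0.67, adjusted p = 0.0250) and rose after washout (0.62, adjusted p = 0.0275), with values for LINC00984 of -0.57 and 0.60 that limma did not call. Voom called both genes lower with IAA and higher in washout against IAA (adjusted p = 0.0328 and 0.0222 for LINC00984). CROCCP1, a pseudogene beside LINC00086, rose with IAA by limma (0.24, adjusted p = 0.0454) and was not called by voom (adjusted p = 0.101), while LINC00086 had -0.23 (adjusted p = 0.306). BRD3, which encodes a BET protein and overlaps LINC00094 (BRD3OS) on the opposite strand, had 1.71 and 1.77 FPKM in the control libraries, 2.10 and 2.04 FPKM in the IAA libraries, and 1.83 and 1.69 FPKM in the washout libraries. Its IAA libraries were above all others (log2 0.20, limma adjusted p = 0.0658). Limma did not call BRD3, and voom called it higher with IAA (adjusted p = 0.00354) and lower in washout against IAA (adjusted p = 0.00662), while LINC00094 had -0.066 with IAA (limma adjusted p = 0.576, voom 0.616). The strand counted is not known, so overlapping pairs share reads to an unknown degree.

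The pairs that start head to head within 1 kb were LINC00205 with POFUT2, a fucosyltransferase gene, and LINC00941 with CAPRIN2. LINC00205 had -0.046 with IAA and POFUT2 0.12 (limma adjusted p = 0.787 and 0.276). LINC00941 had -0.34 and CAPRIN2 -0.038 (limma adjusted p = 0.183 and 0.574). Limma called none of these 4, and voom called LINC00941 lower (adjusted p = 0.0217). RefSeq places the start of LINC00941 40514 bases from that of GENCODE 29, so its pairing depends on the annotation.

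The threshold on FPKM left out some transcripts with many reads over long spans. Below it, 52 LINC rows averaged 10 reads or more, with a median of 26.75 mean reads beside 109.2 for the 35. The median span was 52531 bases for the 49 of these with a span in GENCODE 29 and 6666 bases for the 35. Voom called 5 of the 52 higher with IAA (LINC00511, LINC00662, LINC01024, LINC00880 and LINC00672) and 3 lower (LINC00707, LINC00861 and LINC00152), where 14.3% of all genes were higher and 10.4% lower. In washout against IAA it called 4 higher (LINC00152, LINC00707, LINC00861 and LINC00883) and 3 lower (LINC00511, LINC00880 and LINC00926), where 11.9% and 14.2% of all genes were, and in washout against control 1 lower (LINC00926, 0.44% of all genes). LINC01024, LINC00880, LINC00672, LINC00861, LINC00883 and LINC00926 are in none of the lists used and are named after their values were seen.

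Most of the widely studied LINC transcripts that voom tested were in this group. Of a list of 44 widely studied names 14 had a row, limma tested 3 (LINC00963, LINC00339 and LINC00460) and voom 9. LINC00152, or CYTOR, an RNA linked to cell growth and the cytoskeleton, had 336 and 347 reads (control), 237 and 252 reads (IAA), and 423 and 409 reads (washout). The IAA libraries were lowest and the washout libraries highest, and it fell with IAA (voom log2 change -0.47, adjusted p = 0.00256) and rose after washout (0.76, adjusted p = 9.225e-07). LINC00707 had 23 and 26 reads (control), 7 and 2 reads (IAA), and 35 and 39 reads (washout). It fell from 1.47 ± 0.118 to 0.273 ± 0.217 RPM (reads scaled to the library total, n = 2, voom log2 change -2.52, adjusted p = 0.000189), the largest drop among the list members tested, though on few reads. LINC00511, an RNA raised in many carcinomas, had 480 and 539 reads (control), 721 and 718 reads (IAA), and 560 and 546 reads (washout). It rose with IAA (voom log2 change 0.51, adjusted p = 8.989e-06) and fell after washout (-0.39, adjusted p = 0.000449).

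LINC00662 had 106 and 98 reads (control), 190 and 136 reads (IAA), and 123 and 120 reads (washout), and rose with IAA (voom log2 change 0.66, adjusted p = 0.00778), one IAA library being well above the other. LINC00467 had 127 and 151 reads (control), 141 and 154 reads (IAA), and 135 and 164 reads (washout), with overlapping groups (voom adjusted p = 0.754). LINC00460, which passed the threshold, had 1.38 and 1.98 FPKM in the control libraries, 1.95 and 1.59 FPKM in the IAA libraries, and 2.10 and 1.71 FPKM in the washout libraries and overlapping groups as well (limma adjusted p = 0.841). With LINC00963, voom called 2 of the 9 higher and 3 lower with IAA, and 3 higher and 1 lower in washout against IAA. Over all genes voom called 14.3% higher and 10.4% lower with IAA, and 11.9% and 14.2% in washout against IAA.

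**Figure D4:**
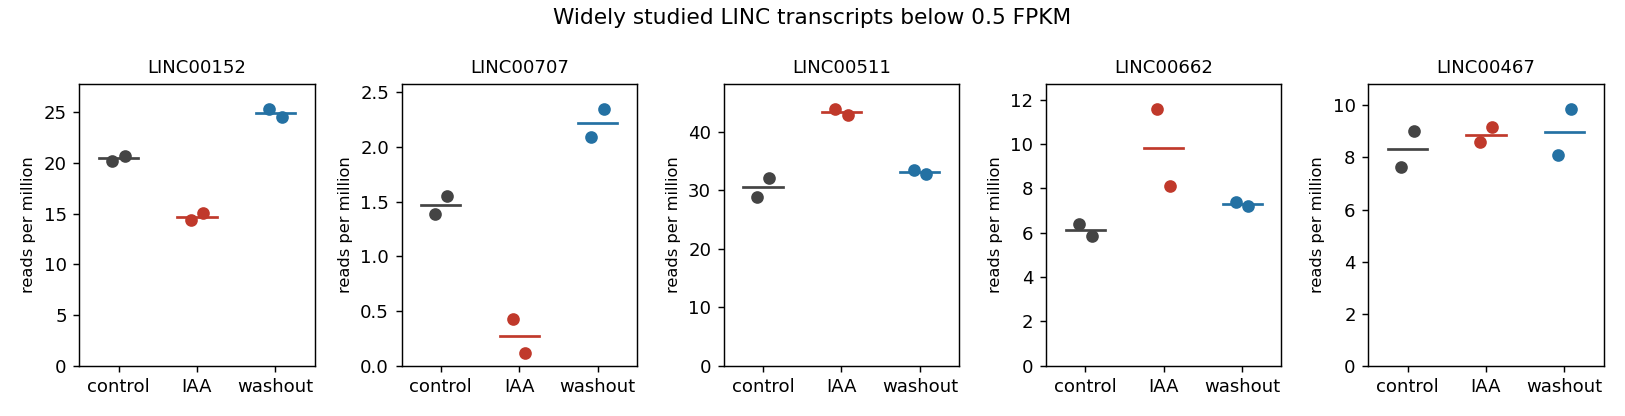
RPM, or reads scaled to the library total (y, from 0), of 5 widely studied LINC transcripts below 0.5 FPKM, in control, IAA and washout (x). Points are single libraries and lines are means of 2. LINC00152 and LINC00707 are lowest with IAA, LINC00511 and LINC00662 highest, and the groups of LINC00467 overlap.

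Long noncoding RNAs with names outside the LINC pattern give the setting. Of 38 listed, 8 were tested by limma, of which 1 rose with IAA and 1 fell (5.99% and 5.56% of all genes tested). HOTAIRM1, transcribed from the HOXA cluster, had 0.378 and 0.426 FPKM in the control libraries, 0.816 and 0.710 FPKM in the IAA libraries, and 0.596 and 0.572 FPKM in the washout libraries (limma log2 change 0.49, adjusted p = 0.0229). Its control mean of 0.402 FPKM lies under the threshold, which it passed through the groups where it was high, so its call is no independent support. On its reads voom gave an adjusted p of 0.0244. CCAT1, a colon cancer RNA made from a super-enhancer region, had 1.58 and 1.62 FPKM in the control libraries, 0.672 and 0.680 FPKM in the IAA libraries, and 1.66 and 1.84 FPKM in the washout libraries, and fell with IAA (log2 -0.84, limma adjusted p = 0.00672) and rose after washout (0.94, adjusted p = 0.00554). The abundant nuclear RNAs MALAT1 and NEAT1 had log2 changes of -0.15 and -0.25 with limma adjusted p of 0.249 and 0.181. TUG1 had -0.024, UCA1 -0.24 and DANCR 0.20, and limma called none of these 5. Voom tested 18 of the list and called 3 higher with IAA (HOTAIRM1, DANCR and KCNQ1OT1) and 5 lower (UCA1, NEAT1, CCAT1, PVT1 and MALAT1), where 14.3% and 10.4% of all genes were. Its adjusted p was 0.000128 for NEAT1, 0.00571 for UCA1, 0.0453 for MALAT1 and 0.0479 for DANCR. Of 5 microRNA host genes tested, MIR17HG, which carries the miR-17 cluster, fell (log2 -0.53, limma adjusted p = 0.04995) and limma did not call the other 4, with MIR22HG at 0.49 (adjusted p = 0.0874). Voom called MIR22HG higher (adjusted p = 0.00111).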

How the data were processed

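The deposited values are FPKM, 1 per gene and library, made by the authors. Per the submitters' processing notes HISAT, Bowtie2, HTSeq and edgeR were used on hg19, and the sources used here give no version, role, strand or annotation release. What a replicate number stands for is not given either, so p-values measure only the spread between these libraries. With GENCODE 29 spans, introns included, 88.3% of 6817 low genes gave whole reads (tolerance 0.02), and with exon lengths 2.42%. Whole reads were thus recovered, by span for 22 of the 35 transcripts and as the smallest whole solution for 13, and summed to 98.4% to 98.6% of the totals. In simulated data 99.5% of 14602 genes came back exact, and 97.4% of 2925 genes whose span was off. The span is also off for those 13, but by very different amounts. It is 6265 bases for LINC00346 and 80531 for LINC00263, where the recovered reads imply lengths of 585 and 9754. For LINC00963 the 2 lengths are close (30236 and 30218). The simulated rate need not hold for spans that are far off or for transcripts with few reads.

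Genes averaging 0.5 FPKM or more (10561) entered limma 3.58.1 (R 4.3.3), fitted to log2(FPKM + 0.5) of all 6 libraries with a variance trend and 3 residual degrees of freedom, two-sided, with Benjamini-Hochberg adjustment over all genes tested. Log2 changes on this scale understate those of low genes, and ratios are of mean FPKM. Voom on recovered reads (mean of 10 or more) was an alternative. In data simulated for IAA against control (10425 genes), 87.7% of 106 genes changed 2-fold and 55.1% of 89 changed 1.5-fold were recovered, with 7 false calls. The simulated spread between libraries was a fixed value, not estimated from these data, and only genes averaging 10 reads or more were changed. These rates therefore need not hold for the real libraries or for transcripts with few reads.

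The transcripts and lists were chosen with earlier results of these data known. Named are all called transcripts, the 10 most abundant, those beside the threshold, and tested list members, though not all of the last. Others were picked for their values, reads, intervals or promoter motifs, and only some of them are marked as chosen after their values were seen. Lists of names ending in -IT or -OT and a number, and of HOX antisense RNAs, matched 0 rows.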

Additional observations from a re-analysis of the deposited data

How the results depend on the processing

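With 2 libraries a group, the counts depended on the setting. With no filter, 1 of the 35 was higher and 2 lower with IAA, and 2 were higher after washout against IAA. Over all 21707 genes then tested, 468 were higher and 395 lower with IAA, and 450 were higher after washout. With only the 2 groups compared in the fit, 0 were higher and 1 lower with IAA, beside 196 and 191 of 10561 genes. With voom on recovered reads, 1 was higher and 8 lower with IAA, and 8 were higher after washout. Of all 14770 genes voom tested, 14.3%, 10.4% and 11.9% were. With 1 library left out, 0 were higher and 0 to 1 lower with IAA (2 and 4 with all libraries), and 0 to 4 higher and 0 to 1 lower after washout (5 and 1 with all). The lone library of an arm is then assumed to vary like the other groups. Same-numbered libraries shared little deviation from their group means (correlations of 0.086, -0.012 and 0.036), which does not show whether they were handled as pairs. With a replicate block 1 was higher and 2 lower with IAA, and 2 were higher after washout. Of all 10561 genes, 170 were higher and 168 lower with IAA in that fit, and 155 were higher after washout. Over all genes with IAA, 1220 became 387 with only 2 groups, 338 with the block, 3648 with voom and 33 to 387 without 1 library. In washout against IAA, 1313 became 362, 289, 3866 and 29 to 360, and in washout against control 1 became 47 with no filter and 123 with voom, against 0 to 4 without 1 library. For LINC00963 in both comparisons, and for LINC00641 and LINC00896 after washout, the call held in all 9 settings that kept the libraries. LINC00852 with IAA held in 5 of 9. Without 1 library, 0 of 6 fits kept the IAA call of LINC00641, LINC00896, LINC00638, LINC00973 or LINC00852, with adjusted p of 0.0529 to 0.151. No single transcript reversed in sign among those called. The cause was not tested.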
